A study of Mus musculus with 16 samples.

Results

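Etv4, Etv5, Spry1, Spry2, Spry4, Dusp6, Spred1 and Spred2 are genes that cells transcribe in response to fibroblast growth factor (FGF) signalling through the kinase ERK, and most of them encode proteins that damp that signal. They were followed here in the embryonic salivary glands of the mouse. The 8 genes were chosen by name, with earlier results of these data known, and matched to the gene symbols of the authors' table. They are 8 of the 48709 genes with a row of counts, and all 8 were among the 18191 genes that passed the filter on low counts. The samples were 16 bulk RNA-seq libraries in 4 groups of 4, the epithelium and the mesenchyme of the parotid and of the submandibular gland, all from wild-type ICR mice at embryonic day 13 with no treatment named. The labels describe the samples of a group as biological replicates but do not say how many embryos went into a sample. Every tissue was the separated layer of a gland, which can still hold other cells. The sample titles speak of tissue harvested at that age, whereas the design text of the series also mentions gland culture. That wording could not be settled from the labels.

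When an FGF binds its receptor, the signal runs through the adaptors FRS2 and GRB2 to RAS, RAF, MEK and ERK, and ERK then switches on a short list of genes. Etv4 and Etv5 encode ETS-family transcription factors that carry the response further, whereas Sprouty proteins act between the receptor and RAS, SPRED proteins bring neurofibromin to RAS, and DUSP6 takes the phosphates off ERK. In salivary glands Fgf10 is made by the mesenchyme and acts on the receptor FGFR2b of the epithelium, where it drives bud growth and branching. Several genes of this kind are kept off by the repressor Capicua, which binds a TGAATG-containing sequence until ERK inactivates it.

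Promoter sequence was looked up for all 8 genes in the RefSeq table of build GRCm38.p6, and 6 of them had an entry. Etv4 and Spry4 had none, so no sequence of theirs was searched. The 250 bases before each start were searched on both strands for the Capicua octamers TGAATGAA and TGAATGGA and for the ETS motif CCGGAAGT, and no window of these genes held any of them. Among 32817 promoter windows of the same length, 1.08%, 1.01% and 2.88% held them. The shorter cores TGAATG and CCGGAA were added after the sequences had been seen. TGAATG lies within both octamers and was found in 10.9% of all windows, and CCGGAA in 12.02%. Among these genes the core TGAATG was present before Dusp6 and before the second start of Etv5, and these windows are printed because they hold the matches. No window held CCGGAA. Both sequences are shown 5′ to 3′ on the strand of the gene, with each TGAATG, or its reverse complement CATTCA, in capitals.
Etv5, second start, chr16:22438369-22438618, minus strand: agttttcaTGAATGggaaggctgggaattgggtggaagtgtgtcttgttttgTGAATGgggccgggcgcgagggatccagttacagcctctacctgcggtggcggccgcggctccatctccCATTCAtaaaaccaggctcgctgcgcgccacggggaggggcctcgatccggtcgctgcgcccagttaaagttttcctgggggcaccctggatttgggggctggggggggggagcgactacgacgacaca
Dusp6, chr10:99262981-99263230, plus strand: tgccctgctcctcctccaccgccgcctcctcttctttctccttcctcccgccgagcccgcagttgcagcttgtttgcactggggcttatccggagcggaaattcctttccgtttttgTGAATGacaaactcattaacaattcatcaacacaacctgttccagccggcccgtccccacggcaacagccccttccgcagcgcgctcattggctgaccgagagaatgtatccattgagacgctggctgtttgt
In the Etv5 window the matches began 242, 198 and 129 bases before the start, and in the Dusp6 window the match began 133 bases before it. The Etv5 window lies within the gene and holds 0 exonic bases of any gene in the GENCODE M21 annotation, and the Dusp6 window likewise holds 0. A match of this kind describes the letters of the window and does not show that a protein binds there.

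Gene counts per library summed to 16912258 to 27646844, with submandibular mesenchyme the shallowest group at 16912258 to 18583164. Levels are given as CPM, a gene's share of the counts of its library after TMM scaling, with the SD over the 4 libraries of a group. The layers were well separated by their markers: 8 epithelial markers (among them Epcam, Cdh1 and Krt8) summed to 2390 to 2783 CPM in the parotid and 2240 to 2678 CPM in the submandibular epithelium, and their summed level in mesenchyme was 0.751% (parotid) and 1.65% (submandibular) of that. The 8 mesenchyme markers in epithelium summed to 0.930% and 0.683% of their mesenchymal level. Submandibular epithelium replicate 1 and parotid epithelium replicate 4 stood apart by erythroid markers, at 731 and 493 CPM against 7.37 to 151 CPM in the other 6 epithelial libraries, and results of the epithelial comparison are also given without them. The reads carry no strand, and Spry1 shares 710 exonic bases with the antisense gene Gm42922, whose level was at most 0.604 CPM. Spry4 overlaps 2 small RNA genes with no exonic base in common.

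Most of these genes were higher in epithelium. Compared with the mesenchyme of the same gland, 7 of 8 were higher and 1 was lower in parotid epithelium, and 6 were higher and 1 lower in submandibular epithelium (edgeR quasi-likelihood test, Benjamini-Hochberg adjusted p under 0.05). The 1 gene that was lower in the epithelium of both glands was Spry4, and the gene without a call was Spred1 in the submandibular gland. Calls between the layers were common among all genes: 64.9% of the 18191 genes were called in the parotid gland (31.4% more and 33.5% less abundant in epithelium) and 67% in the submandibular gland (33.3% higher and 33.7% lower). The median log2 fold change, epithelium minus mesenchyme, over the 8 genes was 1.16 in parotid and 1.26 in submandibular gland, against -0.0044 and 0.014 over all genes. As the genes were chosen with earlier results of these data known, these counts and medians describe the 8 genes only. The share of all genes whose libraries did not overlap between groups was not worked out. Statements on overlap therefore describe the gene named and have no background to be set against. With library totals in place of TMM the submandibular median of all genes moved by -0.12, and the calls of the 8 genes between layers had the same directions. In bulk tissue a lower level can come from fewer cells that express a gene or from less RNA in each of them, and these cannot be told apart here.

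**Figure D1:**
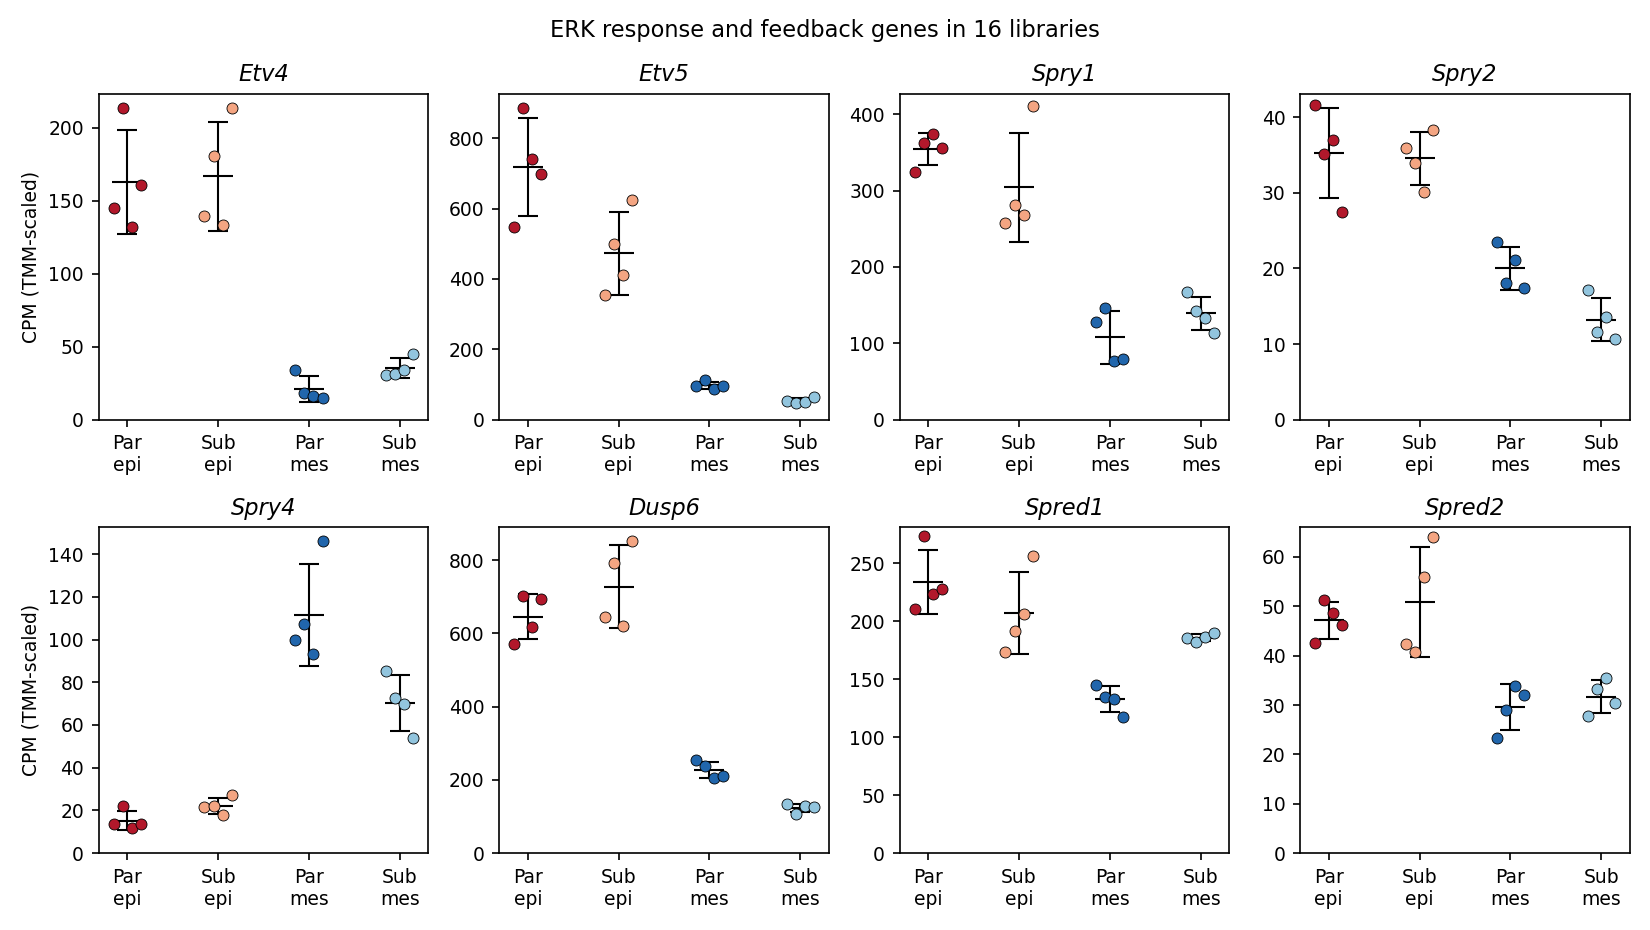
Level of each of the 8 genes in CPM after TMM scaling, on linear axes that start at 0, for parotid (Par) and submandibular (Sub) epithelium (epi) and mesenchyme (mes). Each point is a library and the bars show mean ± SD of the 4 libraries of a group: the epithelial points lie above the mesenchymal ones except for Spry4, where they lie below, and for Spred1 in the submandibular gland, where they overlap.

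Among the genes that were higher in epithelium, the transcription factors Etv4 and Etv5 had the widest layer differences in the parotid gland, and Etv5 and Dusp6 in the submandibular gland. Etv4 (chr11:101769742-101785371, minus strand) was at 145, 213, 132 and 161 CPM in the 4 parotid epithelial libraries and 34.1, 18.3, 15.9 and 14.9 CPM in the parotid mesenchymal ones. In the submandibular gland it was at 139.7, 180.2, 133 and 213 CPM in epithelium and 30.6, 31.1, 33.8 and 45.2 CPM in mesenchyme. The layers did not overlap in either gland, and parotid mesenchyme replicate 1 stood above the other 3 of its group. Group means were 163 ± 35.7 CPM against 20.8 ± 8.99 CPM in parotid and 167 ± 37.4 CPM against 35.2 ± 6.84 CPM in submandibular gland (SD, n = 4). The log2 fold change, epithelium minus mesenchyme, was 2.97 (SE 0.259, adjusted p = 5.34e-08) in parotid and 2.24 (SE 0.251, adjusted p = 8.14e-07) in submandibular gland. Mesenchymal Etv4 therefore stood at 12.8% and 21.1% of the epithelial mean in the respective glands, above the 0.751% and 1.65% at which the epithelial markers stood.

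Etv5 (chr16:22381309-22439719, minus strand), the closest relative of Etv4 in this set, was more abundant per kilobase of exon than Etv4 in both epithelia, at 174.8 ± 33.97 against 52.4 ± 11.5 CPM per kb in parotid and 115 ± 28.5 against 53.7 ± 12.04 in submandibular gland. Its levels were 546, 885, 739.9 and 697 CPM in the epithelium of the parotid and 356, 499, 411 and 624 CPM in that of the submandibular gland. In mesenchyme they were 96.3, 112, 87.03 and 95.7 CPM (parotid) and 51.9, 46.1, 51.3 and 65.05 CPM (submandibular). Layers did not overlap in either gland, and in mesenchyme the glands did not overlap either, every parotid library being above every submandibular one. Means were 717 ± 139 and 472 ± 117 CPM in the epithelia and 97.7 ± 10.3 and 53.6 ± 8.08 CPM in the mesenchymes, parotid first (SD, n = 4). The layer difference was a log2 fold change of 2.88 (SE 0.177, adjusted p = 4.61e-10) in parotid and 3.14 (SE 0.179, adjusted p = 1.81e-10) in submandibular gland. These are 7.34-fold and 8.82-fold higher levels in epithelium.

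The Sprouty genes did not share a direction. Spry1 and Spry2, which encode cytoplasmic inhibitors of RAS and ERK activation downstream of receptor tyrosine kinases, were higher in epithelium, and Spry4, an inhibitor of the same family, was higher in mesenchyme. Spry1 (chr3:37639947-37644598, plus strand) was at 324, 362, 375 and 356 CPM in the parotid and 258, 281, 268 and 410.4 CPM in the submandibular epithelium. In mesenchyme it was at 128, 146, 77.5 and 79.8 CPM (parotid) and 167, 143, 133 and 114 CPM (submandibular). The layers did not overlap, submandibular epithelium replicate 4 stood far above the other 3 of its group, and the parotid mesenchymal libraries fell into a higher pair (replicates 1 and 2) and a lower pair. The log2 fold change between layers was 1.72 (SE 0.199, adjusted p = 1.15e-06) in parotid and 1.13 (SE 0.196, adjusted p = 8.59e-05) in submandibular gland.

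Spry2 (chr14:105891947-105896819, minus strand) was lower per kilobase than Spry1 in every group. It was at 41.6, 35.2, 36.9 and 27.4 CPM in the parotid and 35.9, 33.9, 30.1 and 38.4 CPM in the submandibular epithelium. In parotid mesenchyme it was at 23.4, 18.01, 21.1 and 17.4 CPM and in submandibular mesenchyme at 17.1, 11.6, 13.6 and 10.6 CPM. The epithelial libraries of each gland were all above the mesenchymal ones, while the epithelial glands overlapped throughout. Between layers the log2 fold change was 0.82 (SE 0.156, adjusted p = 0.000195) in parotid and 1.39 (SE 0.159, adjusted p = 7.2e-07) in submandibular gland.

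Spry4 (chr18:38586247-38601415, minus strand) was the only one of the 8 with more RNA in mesenchyme than in epithelium. It was at 99.6, 107, 93.1 and 146 CPM in the parotid and 85.3, 72.4, 69.8 and 53.8 CPM in the submandibular mesenchyme. In epithelium it was at 13.7, 21.9, 11.8 and 13.7 CPM (parotid) and 21.4, 22.3, 18.1 and 27.2 CPM (submandibular). Every mesenchymal library exceeded every epithelial one. The log2 fold change, epithelium minus mesenchyme, was -2.87 (SE 0.206, adjusted p = 3e-09) in parotid and -1.66 (SE 0.197, adjusted p = 1.11e-06) in submandibular gland, that is 7.29-fold and 3.16-fold lower in epithelium. Epithelial Spry4 stood at 13.7% and 31.6% of the mesenchymal mean, while the 8 mesenchyme markers stood at 0.930% and 0.683% in the same epithelia.

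Dusp6 (chr10:99263231-99267489, plus strand), the phosphatase that inactivates ERK, was abundant in every group. It was at 572, 701, 617 and 693 CPM in the parotid and 644, 793, 621 and 853 CPM in the submandibular epithelium. In mesenchyme it was at 254, 237, 206 and 209.8 CPM (parotid) and 133, 106, 127 and 125 CPM (submandibular). The epithelia of the glands overlapped, the layers did not, and the mesenchymes of the glands did not. The layer difference was a log2 fold change of 1.51 (SE 0.114, adjusted p = 4.76e-09) in parotid and 2.56 (SE 0.118, adjusted p = 1.41e-11) in submandibular gland. Mesenchymal Dusp6 was at 35.1% of the epithelial mean in parotid and 16.9% in submandibular gland.

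Spred1 and Spred2, whose products hold back RAS together with neurofibromin, had the narrowest layer differences. Spred1 (chr2:117121374-117182279, plus strand) was at 210.3, 273, 224 and 228 CPM in the parotid and 174, 192, 206 and 256 CPM in the submandibular epithelium. In mesenchyme it was at 145, 135, 133 and 118 CPM (parotid) and 185, 182, 186 and 189.9 CPM (submandibular). The layers were apart in the parotid gland and overlapped in the submandibular gland, where the 4 mesenchymal libraries lay within a few CPM of each other. The log2 fold change was 0.82 (SE 0.109, adjusted p = 4.25e-06) in parotid and 0.15 (SE 0.108, adjusted p = 0.218, 95% interval -0.07 to 0.38 before adjustment) in submandibular gland, and the latter ran from -0.02 to 0.16 when single libraries were left out. Spred2 (chr11:19924375-20024026, plus strand) was at 42.5, 51.2, 48.6 and 46.3 CPM in the parotid and 42.4, 40.8, 56.01 and 64.03 CPM in the submandibular epithelium. Its mesenchymal levels were 23.3, 29.01, 33.9 and 31.99 CPM (parotid) and 27.7, 33.3, 35.6 and 30.3 CPM (submandibular). Here the layers did not overlap in either gland and the glands overlapped in both layers. The log2 fold change was nearly equal in the glands, at 0.67 (SE 0.146, adjusted p = 0.000641) in parotid and 0.68 (SE 0.146, adjusted p = 0.000553) in submandibular gland.

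The glands were then compared within a layer, which asks whether parotid and submandibular tissue of this age differed in the RNA levels of these genes. The sample titles give the embryonic day and not how far each gland had developed. Gland and developmental stage therefore cannot be told apart here. In epithelium Etv5 alone was called, at 717 ± 139 CPM in the parotid against 472 ± 117 CPM in the submandibular epithelium (a log2 fold change of 0.60 with SE 0.165, edgeR adjusted p = 0.0167, 1.52-fold), although the ranges of the groups overlapped. The other 7 genes were not called. For this contrast 20.9% of all genes passed, 11.2% with more and 9.72% with less RNA in parotid, so 1 of 8 was not above that share. The median log2 fold change was -0.0034 over the 8 genes and -0.0016 over all genes. Spry4 was at 15.3 ± 4.49 CPM in the parotid against 22.2 ± 3.78 CPM in the submandibular epithelium, a log2 fold change of -0.54 with an adjusted p of 0.0605, and it passed the threshold under library totals (0.039), upper-quartile scaling (0.0379) and DESeq2 (0.0397). It also passed without parotid epithelium replicate 2 (0.0095), parotid mesenchyme replicate 4 (0.0392) or submandibular epithelium replicate 3 (0.0429).

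For the remaining 6 genes the 95% intervals of the epithelial gland difference, before adjustment, show how large a difference the data leave room for. They were -0.54 to 0.47 for Etv4, -0.19 to 0.63 for Spry1 and -0.30 to 0.35 for Spry2 on the log2 scale. They were -0.41 to 0.06 for Dusp6, -0.05 to 0.40 for Spred1 and -0.41 to 0.20 for Spred2. Without submandibular epithelium replicate 4, in which all 8 genes were above their group means, Spred1 also passed the threshold (log2 fold change 0.30, edgeR adjusted p = 0.0284). Without submandibular epithelium replicate 1 and parotid epithelium replicate 4, the libraries with most erythroid RNA, the Etv5 difference was 0.52 (adjusted p = 0.0725) and no gene of the 8 was called, while 10.2% of all genes were. Leaving out submandibular epithelium replicate 1 alone took the number of genes called from 3801 to 2451. Macrophage markers (8 in the list) summed to 14.4 to 20.5 CPM in the parotid and 0.754 to 8.16 CPM in the submandibular epithelium, and immediate early and heat shock genes to 544 to 1518 and 1356 to 3269 CPM. Their part in the result was not tested.

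In mesenchyme the picture was mixed within the set. Etv5, Spry2, Spry4 and Dusp6 were higher in parotid mesenchyme, Etv4 and Spred1 were lower, and Spry1 and Spred2 were not called. The background for this comparison was 34.5% of all genes called, 20.8% with more and 13.7% with less RNA in parotid. The median log2 fold change, parotid minus submandibular, was 0.25 over the 8 genes and 0.04 over all genes. Dusp6 was 1.84-fold higher, with means of 227 ± 22.7 and 123 ± 11.9 CPM (log2 fold change 0.88, SE 0.113, edgeR adjusted p = 1.36e-05). Etv5 was 1.82-fold higher (log2 fold change 0.87, SE 0.168, adjusted p = 0.000708). The parotid and submandibular libraries of both genes did not overlap.

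Some of the smaller mesenchymal gland differences depended on a single library or on the scaling. Spry4 had means of 111 ± 23.7 and 70.3 ± 12.9 CPM (log2 fold change 0.66, SE 0.190, adjusted p = 0.0121), and without parotid mesenchyme replicate 4, its highest library, the change was 0.45 (adjusted p = 0.0722). Spry2 had means of 19.99 ± 2.79 and 13.2 ± 2.85 CPM (0.60, SE 0.159, adjusted p = 0.00755), and with library totals in place of TMM the adjusted p was 0.0506. Both genes were without overlap between the glands. Spred1 was lower in parotid at 133 ± 11.2 against 186 ± 3.22 CPM (-0.49, SE 0.108, adjusted p = 0.00214), again without overlap.

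Etv4 was the member of the ETS pair that went the other way. It had means of 20.8 ± 8.99 and 35.2 ± 6.84 CPM (log2 fold change -0.76, SE 0.248, edgeR adjusted p = 0.0256), with parotid mesenchyme replicate 1 inside the submandibular range. The call was lost without parotid mesenchyme replicate 3 (0.0763) or 4 (0.052), without submandibular mesenchyme replicate 4 (0.0873) and with no filter on low counts (0.0729). Spry1 had means of 108 ± 34.6 and 139 ± 21.9 CPM and a 95% interval of -0.78 to 0.04 before adjustment. It was called lower in parotid with library totals (-0.54, adjusted p = 0.0363) and without parotid mesenchyme replicate 2 (-0.60, adjusted p = 0.0205). Spred2 had nearly equal means, 29.6 ± 4.62 and 31.7 ± 3.41 CPM, with an interval of -0.41 to 0.21.

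Markers of other cell types were summed in the same mesenchymal libraries. The 6 skeletal muscle markers summed to 339 to 1341 CPM in the parotid and 142 to 305 CPM in the submandibular mesenchyme, the 6 smooth muscle and pericyte markers to 145 to 333 and 56.5 to 71.4 CPM, and the 6 neuron markers to 265 to 618 and 28.5 to 156 CPM. In each mesenchyme, 6, 5 and 5 of them had a mean of at least 1 CPM. Parotid mesenchyme replicate 4 stood apart for the 2 muscle lists, at 339 and 145 CPM. The other parotid mesenchymal libraries were at 1179 to 1341 and 292 to 333 CPM. For the neuron markers it was the highest of its group, at 618 CPM. It is also the library without which Spry4 was not called between the mesenchymes. The 8 macrophage markers summed to 62.7 to 117 and 48.6 to 73.0 CPM, and the 9 endothelial markers to 526 to 801 and 581 to 809 CPM, and for both lists the ranges overlapped. The 9 erythroid markers were at 1440 to 2187 and 3288 to 4132 CPM, higher sums in submandibular mesenchyme. No marker of these lists was at 0 in every library of either mesenchyme. Their part in the gland differences was not tested. Scaling also matters for a comparison in which many genes differ: with library totals the median of all genes moved by -0.17 and with upper-quartile scaling by -0.11, and 37.4% and 46.2% of the called genes were then higher in parotid, against 60.3% with TMM.

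**Figure D2:**
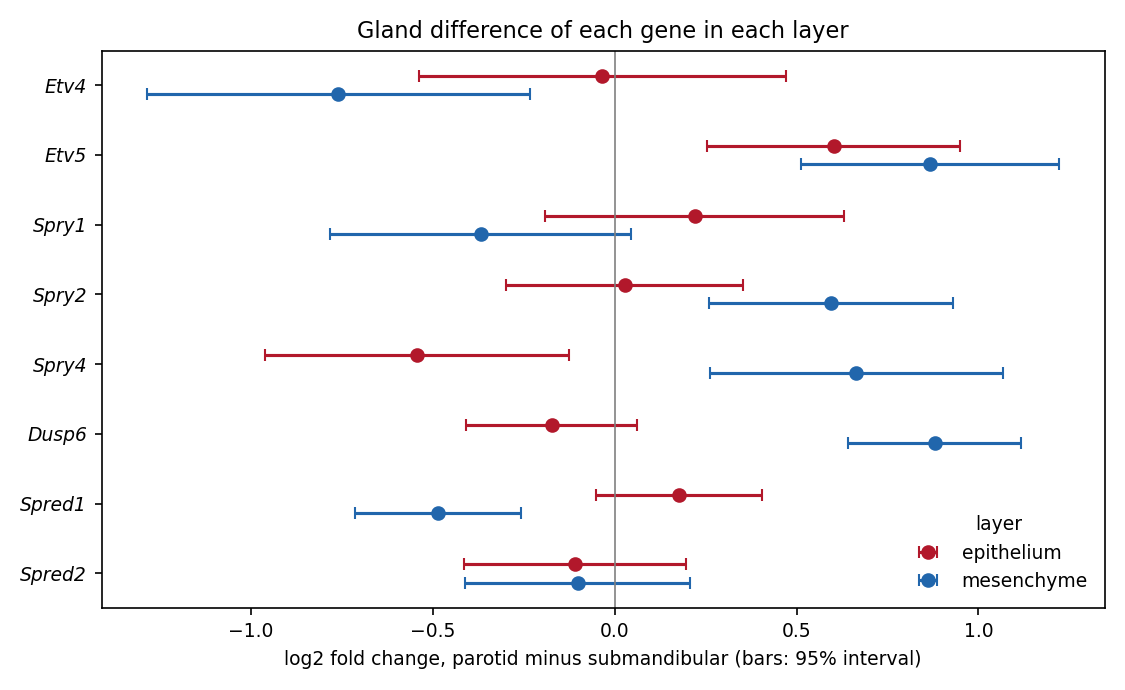
Log2 fold change, parotid minus submandibular, of each of the 8 genes in epithelium and in mesenchyme, from the edgeR fit to 16 libraries; bars are 95% intervals before adjustment for multiple testing. Dusp6 and Spry4 differ in mesenchyme at 0.88 and 0.66 and lie below 0 in epithelium, at -0.17 and -0.54, and Spred1 shows the opposite arrangement at -0.49 and 0.18.

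Whether the glands differed alike in epithelium and mesenchyme was tested by the interaction of gland and layer, the epithelial gland difference minus the mesenchymal one. It was called for 3 of the 8 genes, and 20.9% of all genes were called, 8.67% higher and 12.2% lower. Dusp6 was at -1.05 (SE 0.158, adjusted p = 0.000144) and Spry4 at -1.21 (SE 0.274, adjusted p = 0.00451): for both genes the parotid level relative to the submandibular one was lower in epithelium than in mesenchyme. Spred1 was at 0.66 (SE 0.153, adjusted p = 0.00496), the reverse. Each of these calls held when any of the 16 libraries was left out, with adjusted p values of at most 0.000607, 0.0133 and 0.0125.

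The other 5 genes were not called for the interaction. Etv5, with higher levels in the parotid gland in both layers, had an interaction of -0.26 with an interval of -0.76 to 0.23. The values were 0.72 for Etv4 (adjusted p = 0.154), 0.59 for Spry1 (0.147), -0.57 for Spry2 (0.08) and -0.01 for Spred2 (0.99). Single libraries moved some of these across the threshold: Etv4 without parotid mesenchyme replicate 1 (1.07, adjusted p = 0.00874), Spry1 without parotid mesenchyme replicate 2 (0.84, 0.0258) or submandibular epithelium replicate 4 (0.83, 0.0274), and Spry2 without submandibular mesenchyme replicate 1 (-0.73, 0.0216). The median over the 8 genes was -0.14, against -0.04 over all genes. With library totals, which moved the median of all genes by 0.14, 59.8% of the called genes were higher, against 41.5% with TMM.

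Levels of different genes were compared only per kilobase of exon, using the union of exons in GENCODE M21. By this measure Dusp6 was the highest of the 8 in parotid epithelium (206 ± 19.9 CPM per kb), submandibular epithelium (232 ± 36.1) and parotid mesenchyme (72.4 ± 7.25). In submandibular mesenchyme Spry1 (47.9 ± 7.54 CPM per kb) and Dusp6 (39.3 ± 3.79) came first with overlapping libraries. The epithelial order after Dusp6 was Etv5, Spry1, Etv4, Spred1, Spry2, Spred2 and Spry4 in both glands. Neighbours in it did not overlap, apart from Dusp6 and Etv5 in parotid and Etv5 and Spry1 in submandibular epithelium. Spry4 came last there, at 3.22 ± 0.944 and 4.68 ± 0.795 CPM per kb. In mesenchyme 3 genes of the 8 were ahead of it in each gland: it was at 23.4 ± 4.98 CPM per kb in parotid, where its libraries overlapped those of Spry1, Etv5 and Spred1, and 14.8 ± 2.72 in submandibular gland, where they overlapped those of Etv5 and Etv4.

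Within the Sprouty family Spry4 made up 2.26 ± 0.631% of the summed Spry1, Spry2 and Spry4 level per kilobase in parotid epithelium and 3.74 ± 0.335% in submandibular epithelium. In mesenchyme it made up 34.0 ± 8.76% and 21.4 ± 0.712% (SD, n = 4). No epithelial library reached the mesenchymal range. Spry1 was the largest component in every library but parotid mesenchyme replicate 4, at 85.8 ± 2.26% and 82.9 ± 2.14% in epithelium and 52.0 ± 9.39% and 69.5 ± 1.05% in mesenchyme. In that library Spry4 was ahead, at 46.1% against 41.3% for Spry1. The log2 ratio of Spry4 to Spry2, epithelium minus mesenchyme, differed by -3.69 in parotid and -3.06 in submandibular gland, and the groups did not overlap. An exact two-sided permutation test gave p = 0.0286 for each, the smallest that 4 against 4 libraries can give, and 0.0653 after Benjamini-Hochberg adjustment over the 16 ratio tests made, so that no ratio passed.

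Of the ETS pair, Etv4 made up 23.1 ± 2.92% of the summed Etv4 and Etv5 level per kilobase in parotid epithelium and 31.9 ± 1.80% in submandibular epithelium. In mesenchyme the shares were 21.6 ± 6.97% and 46.3 ± 1.77%. The parotid and submandibular libraries did not overlap in either layer, although parotid mesenchyme replicate 1, at 31.9%, lay apart from the other 3 at 17.1 to 19.5%. The log2 ratio of Etv4 to Etv5, parotid minus submandibular, differed by -0.64 in epithelium and -1.69 in mesenchyme, each at the smallest exact permutation p of 0.0286 (adjusted 0.0653). Spred1 made up 73.6 to 80.0% of the summed Spred1 and Spred2 level in the 4 group means, and the log2 ratio of Spry1 to Spry2 differed by -1.02 between the mesenchymes, parotid minus submandibular (exact permutation p = 0.0286, adjusted 0.0653).

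**Figure D3:**
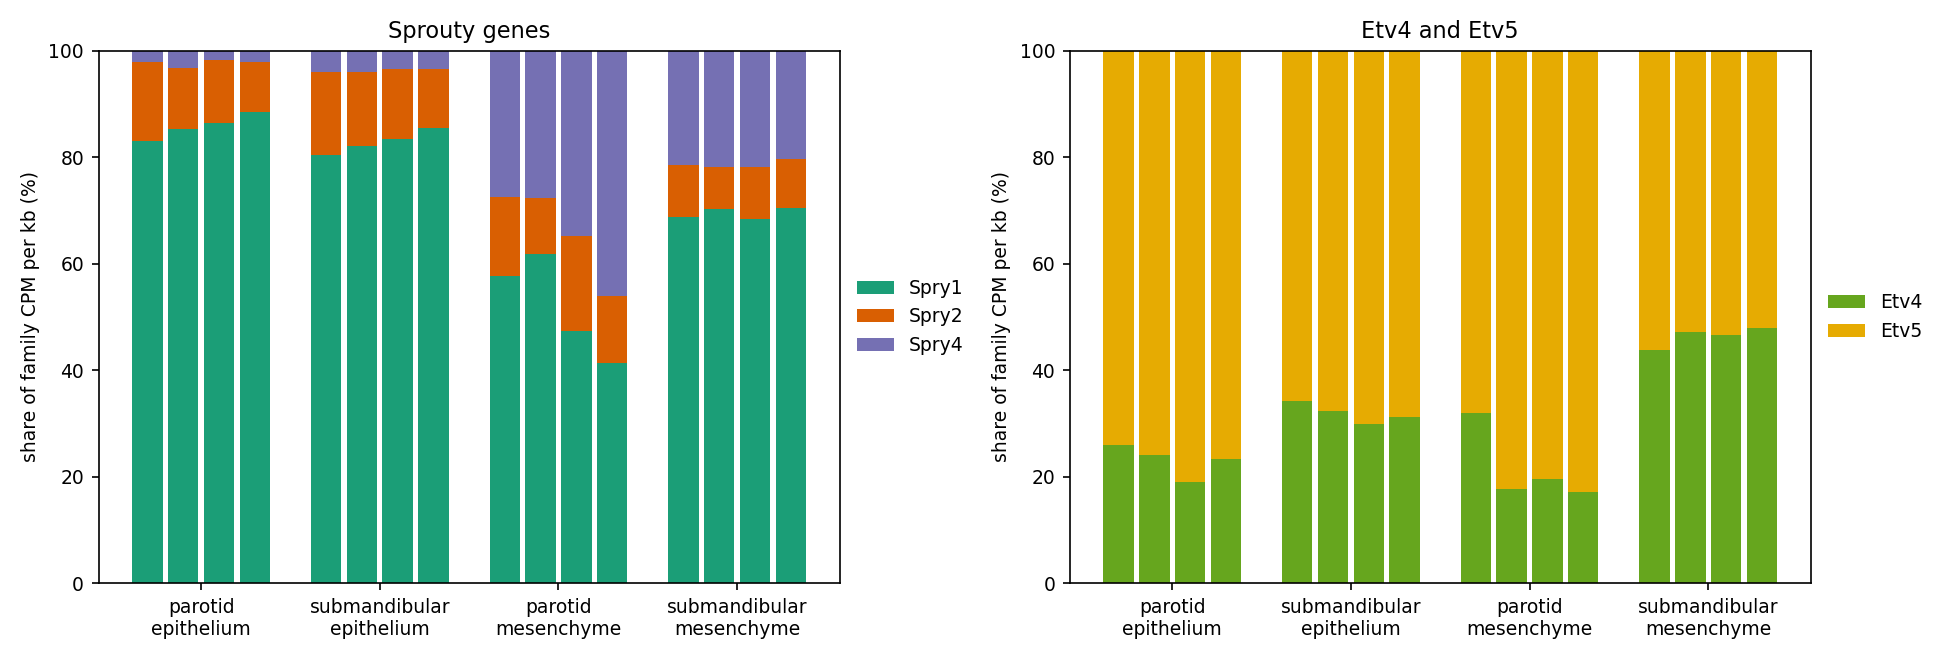
Share of each gene in the summed CPM per kilobase of its family, in percent, for the Sprouty genes (left) and for Etv4 and Etv5 (right). Each bar is a library, in replicate order within the 4 groups: Spry4 takes 2.26% and 3.74% on average in the epithelia and 34.0% and 21.4% in the mesenchymes, and Etv4 takes its largest share, 46.3%, in submandibular mesenchyme.

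Other genes of the same response were examined as a list of 16, of which 15 were measured and passed the filter. In parotid tissue 8 were higher and 2 lower in epithelium, and in submandibular tissue 9 were higher and 1 lower. The 10 of 15 called in each gland stand beside 64.9% and 67% of all genes, and those higher beside 31.4% and 33.3%. The median log2 fold change was 1.37 and 1.03, against -0.0044 and 0.014 over all genes. These values cover the 15 genes and not ERK response genes as a class. Immediate early genes such as Fos and Egr1 were kept in a separate list of 11 with heat shock genes. Of those 11, 0 had more and 7 had less RNA in the epithelial layer of the parotid gland (median -1.50). In the submandibular gland 2 had more and 3 had less (median -0.16). Myc, which drives growth and is transcribed in response to ERK, was at 2.16 and 2.54 (adjusted p = 6.33e-08 and 1.11e-08), and Il17rd, the membrane FGF antagonist also called Sef, at 1.42 and 2.39 (3.77e-05 and 1.9e-07). The nuclear ERK phosphatase gene Dusp5 was at 2.46 and 1.93 (0.000215 and 0.00141). Flrt3, a membrane protein that binds FGF receptors, was like Spry4 lower in epithelium in both glands: its level was 66.3 ± 4.62 and 64.97 ± 8.63 CPM in the epithelia and 247 ± 59.5 and 276 ± 10.1 CPM in the mesenchymes, parotid first. Its log2 fold changes were -1.90 and -2.09 (adjusted p = 4.5e-09 and 1.32e-09). The ETS gene Etv1 was lower in the epithelium than in the mesenchyme of the parotid gland (-0.70, 0.00194) and was not called in the submandibular gland (0.37, 0.0696).

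**Figure D4:**
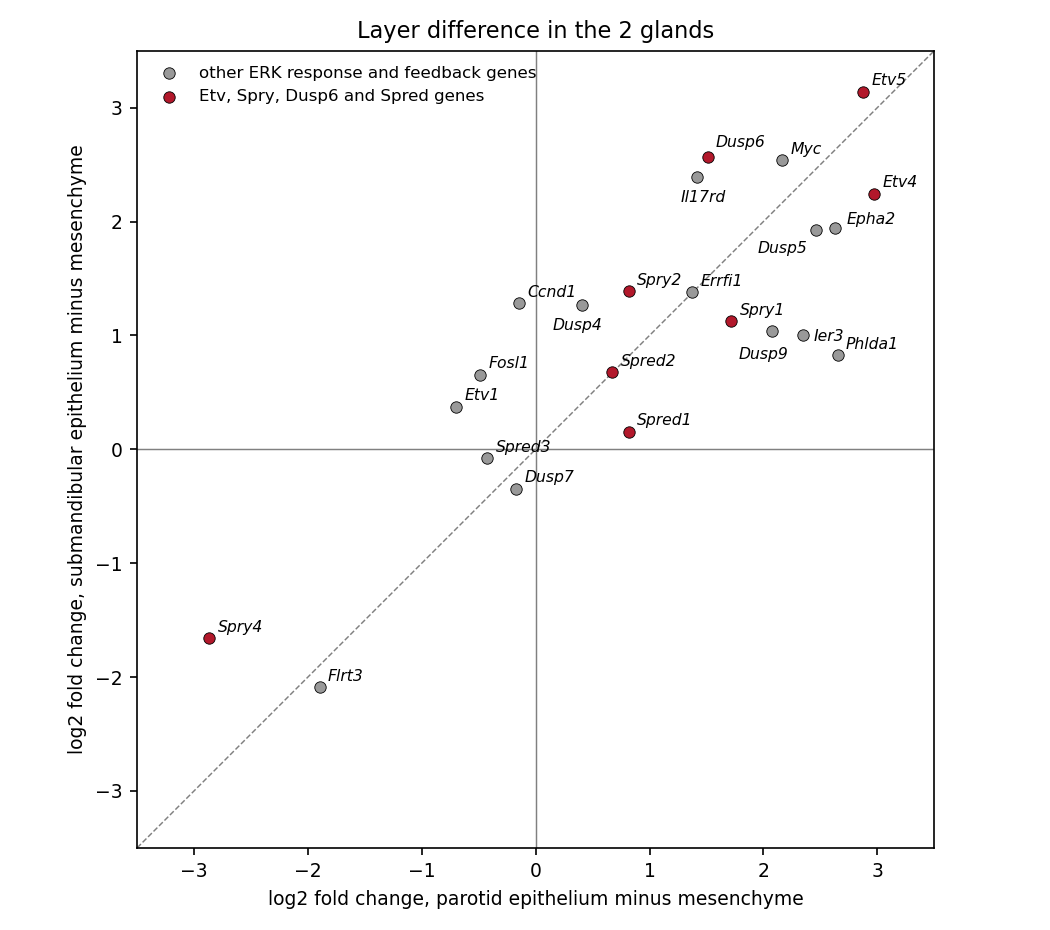
Log2 fold change, epithelium minus mesenchyme, in the parotid gland (x axis) against the submandibular gland (y axis) for the 8 genes (red) and 15 other ERK response and feedback genes (grey), with a dashed line of equality. Etv5 lies at 2.88 and 3.14, and Spry4 and Flrt3 are the points at the lower left, at -2.87 and -1.66 and at -1.90 and -2.09.

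Between the glands, 4 of these 15 genes were higher and 0 lower in parotid epithelium, namely Phlda1, Myc, Spred3 and Il17rd, where 20.9% of all genes were called and 11.2% were higher. Phlda1, which encodes a pleckstrin-homology-like protein, was at 152, 169, 229 and 174 CPM in the parotid and 35.4, 48.6, 42.6 and 59.05 CPM in the submandibular epithelium, with no overlap. Its log2 fold change was 1.96 (edgeR adjusted p = 4e-06), and its interaction was 1.82 (adjusted p = 0.000147). In mesenchyme 5 were higher and 2 lower in parotid, where 34.5% of all genes were called. Il17rd was at 29.5, 18.9, 22.7 and 18.5 CPM in the parotid and 5.10, 4.89, 8.97 and 8.48 CPM in the submandibular mesenchyme (log2 fold change 1.71, adjusted p = 3.95e-05), and Etv1 at 37.04, 41.3, 35.2 and 33.7 and 14.99, 12.6, 15.5 and 11.4 CPM (1.43, 9.24e-06). Neither gene overlapped between the glands. Ier3 and Epha2 were lower in parotid mesenchyme (-1.06 and -0.71, adjusted p = 0.0349 and 0.0151). The medians of the list were 0.24 in epithelium and 0.08 in mesenchyme, against -0.0016 and 0.04 over all genes.

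Upstream of the response, the ligand Fgf10 was mesenchymal, at 456 ± 126 CPM in the parotid and 365 ± 26.2 CPM in the submandibular mesenchyme against at most 2.496 CPM in any epithelial library, and the mesenchymal gland difference was not called (0.32, edgeR adjusted p = 0.53). Of 15 FGF ligand genes 8 passed the filter. In mesenchyme 3 of them were higher and 2 lower in parotid, against 20.8% and 13.7% of all genes, and in epithelium 1 was higher and 2 lower, against 11.2% and 9.72%. Fgf7, which like Fgf10 acts on FGFR2b, was lower in parotid mesenchyme at 21.5 ± 3.26 against 54.5 ± 7.76 CPM (-1.34, adjusted p = 0.0036). Among the 5 FGF receptor genes, Fgfr2 was higher in the epithelium of both glands (2.77 and 1.78, adjusted p = 9.12e-11 and 9.85e-09) and lower in parotid than in submandibular mesenchyme (-1.34, 2.08e-06). The epithelial gland difference of Fgfr2 was not called (-0.36, 0.08). Fgfr3 was the 1 receptor gene called between the epithelia, at 1.19, 1.31, 0.895 and 1.40 CPM in the parotid and 22.01, 14.4, 23.8 and 13.00 CPM in the submandibular libraries (log2 fold change -3.93, adjusted p = 4.09e-08). In mesenchyme it was at 2.63 ± 0.151 and 0.738 ± 0.252 CPM (1.82, 5.93e-05), parotid first. Fgfr3 was thus lower in epithelium than in mesenchyme in the parotid gland (-1.13, 0.000867) and higher in the submandibular gland (4.62, 2.64e-10), with an interaction of -5.75 (2.26e-08). In all, 0 receptor genes were higher and 1 lower in parotid epithelium, where 20.9% of all genes were called, and 2 were higher and 1 lower in parotid mesenchyme, where 34.5% were.

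Among 11 other receptor tyrosine kinase genes, 0 were higher and 3 lower in parotid epithelium (20.9% of all genes called), and 5 were higher and 2 lower in parotid mesenchyme (34.5% called). Met, the receptor for hepatocyte growth factor, was at 5.25 in mesenchyme and -0.37 in epithelium (adjusted p = 2.72e-10 and 0.198). Egfr was at 2.11 and -0.78 (adjusted p = 9.85e-07 and 0.0121). The 20 genes of the cascade from adaptors to ERK and its RSK kinases included 2 that were higher and 1 that was lower in parotid epithelium, with a median of 0.12 against -0.0016 over all genes. In mesenchyme 8 were higher and 0 lower in parotid, against 20.8% and 13.7% of all genes, with a median of 0.16 against 0.04 over all genes. Among them were the RSK kinase gene Rps6ka1 at 0.61 (adjusted p = 0.0396) and the adaptor gene Grb2 at 0.57 (adjusted p = 0.00474).

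Brakes and repressors that act without being part of the response were followed as a list of 9. None was called between the epithelia, where 20.9% of all genes were. In mesenchyme 2 were higher and 1 lower in parotid, against 20.8% and 13.7% of all genes. Cic, which encodes Capicua, was at 103, 109.7, 111 and 146 CPM in the parotid and 57.9, 70.4, 68.8 and 69.3 CPM in the submandibular mesenchyme, without overlap (log2 fold change 0.82, edgeR adjusted p = 0.000215). It was lower in epithelium than in mesenchyme in both glands (-1.38 and -0.60, 1.8e-07 and 0.00108). Nf1, the gene for neurofibromin, was lower in parotid mesenchyme (-0.54, 0.00111). Immediate early and heat shock genes, which cells switch on within minutes of many stimuli, were kept apart as a list of 11. In parotid epithelium 0 were higher and 5 lower than in submandibular epithelium, where 20.9% of all genes were called and 9.72% were lower. In parotid mesenchyme 1 was higher and 0 lower, where 34.5% were called. Between the parotid layers 0 were higher and 7 lower in epithelium, beside 64.9% of all genes called, and in the submandibular gland 2 were higher and 3 lower, beside 67%. Their part in the differences of the 8 genes was not tested.

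Across all 16 libraries, which share layer and gland, the log CPM of Etv5 and Dusp6 had the highest correlation of the 28 pairs (r = 0.97). Within the 8 mesenchymal libraries, which hold the gland difference, it was 0.95, and within the 8 epithelial libraries 0.19. Etv4 and Etv5 were at 0.89 over all libraries, 0.50 in epithelium and -0.61 in mesenchyme. Spry4 correlated negatively with each of the other 7 over the 16 libraries, from -0.75 with Spry2 to -0.93 with Etv4. Within a layer its signs were mixed. In the 8 epithelial libraries its r was 0.74 with Dusp6, 0.69 with Etv4, 0.36 with Spred2, 0.12 with Spry2 and 0.10 with Spred1. It was -0.11 with Spry1 and -0.22 with Etv5 there. In the 8 mesenchymal libraries it was 0.76 with Dusp6, 0.72 with Spry2 and 0.69 with Etv5. With Spred2, Spry1, Etv4 and Spred1 it was -0.21, -0.38, -0.82 and -0.89 there. Some libraries stood high for the set as a whole: parotid epithelium replicate 2 and submandibular epithelium replicate 4 were above their group mean for all 8 genes. Replicate 1 of each epithelium was above it for 1 of 8.

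For each gene the 3 genes with the most similar log CPM profile over the 16 libraries were taken from 11468 genes with at least 10 CPM in a group. Etv4 was nearest to Dsg2, Cdcp1 and Car12 (r = 0.99 each), and Etv5 to Igsf9 (1.00), Hnrnpu and Hip1r (0.99 each). Dusp6 was nearest to Mtcl1, Ptpn3 and Jpt2 (0.99 each). Spry1 was nearest to Snx22, Slc35g1 and Arhgef26 (0.97 each) and Spry2 to Lrp4 (0.97), Nudcd1 and Park7 (0.96 each). Those of Spry4 were Cyp20a1, Ttyh2 and Mef2a (0.98 each), all 3 of which were higher in mesenchyme in these libraries. The nearest genes of Spred1 were C77080, Dmac2 and Rfx5 (0.94 each) and those of Spred2 were Slco2a1 (0.94), Ptprf (0.93) and Sema4a (0.91). These values are descriptions over libraries that share layer and gland.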

How the data were processed

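The members and gene lists were chosen with earlier results of these data known, and so were the promoter cores. Per the labels' protocols, total RNA was turned into full-length cDNA (SMART-Seq v4) and tagmented (Nextera XT), which leaves reads without strand. The submitters' processing notes name STAR 2.5.2a, edgeR and the build GRCm38 (mm10), and no source used here gives the read counter or annotation. Tests used the deposited raw counts per gene. The authors' normalized signal, named as CPM with TMM scaling, served for symbols and as a check. CPM of the 8 genes as computed here differed from it by at most 4.16%. Here the TMM factors came from the genes that passed the filter, with spike-in features left out. Those features held at most 0.0065% of the counts of a library. What made the difference was not tested. Symbols were matched in the deposited table, and exon lengths came from GENCODE M21 (GRCm38).

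Genes passing filterByExpr on the 4 groups (18191 of 48709) entered the quasi-likelihood fit of edgeR 4.0.16, run under R 4.3.3 (TMM, 1 coefficient for each of 4 groups, 16 libraries), and 5 contrasts were tested with Benjamini-Hochberg adjustment over all genes at 0.05. Standard errors were taken from the F statistic. Ratios within families were compared by exact permutation. The fit was tested on simulated counts in which few genes were changed, in parotid epithelium only. That simulation does not cover a comparison in which many genes differ. Alternatives were other scalings, filters, DESeq2 1.42.0, limma-voom (limma 3.58.1), fits to the 8 libraries compared, a replicate block, and each library left out. Same-numbered libraries were not paired by the labels. The edgeR p-values set a difference against the spread between these samples, estimated over the 4 groups together. Beside the 8 members, the genes named are up to 4 called genes of each list with the largest changes in a contrast, and uncalled ones with their values. Genes most like each member were the 3 with the highest Pearson r of log2 CPM (prior count 2) among genes of at least 10 CPM in a group. Values of 1 gene that is counted in these lists are not reported here.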

Additional observations from a re-analysis of the deposited data

Results flagged for a closer look

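Spry1 in submandibular epithelium had a library far from the other 3: replicate 4 was at 410 CPM, against 258 to 281 CPM. Its gap to the next library was 0.846 of the group's range, above Dixon's 95% critical value for 4 samples. This was 1 of the 32 gene and group combinations examined, and chance flags about 1 in 20. The same library was above its group mean for all 8 genes and had the highest sum of immediate early and heat shock genes of its group, at 3269 CPM against 1356 to 1852 CPM. The part of that in the Spry1 value was not tested.

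The gland difference differed between epithelium and mesenchyme, by the interaction term of the edgeR fit, for Dusp6 (-1.05, adjusted p = 0.000144), Spry4 (-1.21, adjusted p = 0.00451) and Spred1 (0.66, adjusted p = 0.00496). For Dusp6 and Spred1 the gland difference was called in mesenchyme and not in epithelium. For Spry4 it was called in mesenchyme and had an adjusted p of 0.0605 in epithelium, in the opposite direction.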

How the results depend on the processing

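Of the values of the 8 genes recomputed under the alternatives, 983 kept their direction and their side of the threshold, 28 changed sign, 14 passed the threshold only under the alternative and 7 lost it. All sign changes were of values that were not called: they were in the epithelial gland difference, in the layer difference of Spred1 in the submandibular gland and in the interaction of Spred2. Among the gene ratios 303 kept theirs and 1 changed sign. The cause of these changes was not tested. For the ratios, keeping their side of the threshold says little about stability, as none passed in the reported test. With a library left out or with the replicate block, none could have passed after adjustment, however large its difference.

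Between the epithelia, 1 of the 8 genes was called in the reported fit, 2 with library totals, with upper-quartile scaling or with DESeq2, 1 to 2 when single libraries were left out, and 0 without the pair of epithelial libraries with most erythroid counts, an alternative chosen after seeing the data. Over all genes this comparison gave 3801 calls, 2451 to 4565 when single libraries were left out and 1863 without that pair. Spry2 there was at -0.0037 with library totals and -0.028 with upper-quartile scaling, and ran from -0.050 to 0.14 when single libraries were left out, Etv4 from -0.17 to 0.11 and Spred2 from -0.19 to 0.025. Spred1 between the submandibular layers ran from -0.020 to 0.16. The interaction of Spred2, -0.0071 in the reported fit, was 0.015 with RLE scaling, 0.14 with library totals, 0.049 with upper-quartile scaling, 0.046 with no filter, 0.060 with a filter of 1 CPM in 4 libraries, 0.015 with DESeq2, 0.014 with limma-voom, and -0.10 to 0.18 when single libraries were left out. The log2 ratio of Spry4 to Spry2 between the mesenchymes ran from -0.15 to 0.18. When single libraries were left out, 4 to 7 of the 8 were called between the mesenchymes and 3 to 4 for the interaction.

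Replicate numbers showed no pairing across the groups as a whole: the 24 correlations of same-numbered deviations ran from -0.12 to 0.22, 3 were over 0.1, and 7 were the best of their library. The highest, 0.21 for replicate 1 and 0.22 for replicate 2, were between submandibular epithelium and mesenchyme, each the best of its library. Whether some libraries of that gland were paired cannot be told from these values. With the replicate block Spry2 also passed for the interaction (-0.60, adjusted p = 0.0324), making 4 calls of 8, and Spred2 was at 0.018. The block changed no other call of the 8 genes, and the number of calls over all genes moved from 2033 higher and 1768 lower to 2177 and 1803 between the epithelia. With 4 libraries in a group and 16912258 to 27646844 gene counts in each, all 8 genes were well covered, and the spread between libraries sets the precision.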
